A study of Mus musculus with 8 samples.

Results

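The BCL2 family genes examined here are 10 genes that decide whether a mitochondrion releases its death signals, and they were picked by name, as the rows of the count table whose gene symbol is Bcl2, Bcl2l1, Bcl2l2, Mcl1, Bcl2l11, Bmf, Bad, Bid, Bax or Bak1. All 10 were found among the 53700 genes of the table, and all 10 passed the filter on low counts that left 13933 genes to test. RNA-Seq had been performed on Lewis lung carcinoma (LLC) cells, a mouse lung tumor line grown in DMEM with serum. The groups were WT cells at 21% O2 (normoxia), FIH-deficient (FIH-KO) cells at 21% O2, WT cells at 1% O2 (hypoxia) and FIH-KO cells at 1% O2, each cultured for 16 hours and each with 2 libraries. FIH, encoded by Hif1an, is the asparagine hydroxylase that limits the activity of hypoxia-inducible factors (HIFs). The FIH-KO cells were made with a CRISPR/Cas9 guide against exon 2 of Hif1an and single-cell dilution, so a trait of a founding clone cannot be told apart from the loss of FIH. No label says whether the 2 libraries of a group came from separate cultures, so the p values measure the spread between these libraries, which may be technical.

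Proteins of this family share BCL2 homology (BH) domains. The survival members (Bcl2, Bcl2l1, Bcl2l2 and Mcl1) hold the effectors Bax and Bak1 inactive at the outer mitochondrial membrane, and the BH3-only members (Bcl2l11, Bmf, Bad and Bid) bind the survival members or the effectors and release that restraint. Once freed, Bax and Bak1 open the membrane, and cytochrome c leaves it to start the caspase cascade. The study had asked whether cells without FIH survive less well, and it reported more apoptotic cells by annexin V staining, more so under hypoxia. That staining was done in several lung cancer lines and after a longer culture than the 16 hours of these libraries. It had pointed out Bcl2l1 and Bmf from these same libraries, so their values here are not independent evidence.

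To show the start regions of some of the genes, the 300 bases before the canonical start site were read from GRCm39, 5′ to 3′ along the gene. Capitals mark the HIF core letters ACGTG or GCGTG, also where they were read on the opposite strand as CACGT or CACGC. Bmf is shown as the gene with the largest change upon FIH loss, Bcl2l2 as the one member that rose in hypoxia, and Bax as the effector that rose upon FIH loss, a choice made after their values were seen.
Bmf (minus strand, chr2:118380178-118380477): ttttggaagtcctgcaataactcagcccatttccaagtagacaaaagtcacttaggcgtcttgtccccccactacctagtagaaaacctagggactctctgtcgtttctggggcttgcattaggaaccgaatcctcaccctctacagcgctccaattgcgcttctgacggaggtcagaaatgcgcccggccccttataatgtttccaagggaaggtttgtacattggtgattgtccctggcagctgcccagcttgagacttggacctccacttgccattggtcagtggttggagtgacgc
Bcl2l2 (plus strand, chr14:55120478-55120777): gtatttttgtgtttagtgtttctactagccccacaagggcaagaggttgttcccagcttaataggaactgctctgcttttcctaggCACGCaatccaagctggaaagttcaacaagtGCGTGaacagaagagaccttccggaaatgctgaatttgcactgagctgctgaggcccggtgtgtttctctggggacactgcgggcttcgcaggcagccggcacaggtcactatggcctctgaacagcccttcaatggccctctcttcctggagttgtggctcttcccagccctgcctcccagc
Bax (minus strand, chr7:45116326-45116625): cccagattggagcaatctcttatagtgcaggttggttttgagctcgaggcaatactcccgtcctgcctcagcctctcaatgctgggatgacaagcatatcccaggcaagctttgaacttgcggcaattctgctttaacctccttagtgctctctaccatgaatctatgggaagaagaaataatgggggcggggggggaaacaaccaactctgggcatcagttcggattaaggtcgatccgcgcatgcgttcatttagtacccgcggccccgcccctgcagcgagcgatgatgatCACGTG
The Bmf window held 0 cores, as did the windows of Bcl2l1, Mcl1 and Bid, which are not shown. The Bcl2l2 window held 2, the first on the opposite strand and the second on the strand of the gene. In Bax the 2 cores overlap, since the same letters read on both strands at the end of the window. A read-through gene (Gm45808) overlaps Bax, and whether exons of other genes reach into the window was not tested. Across the family, 6 of the 10 windows held at least 1 core, against 54.5% of the windows of 13898 tested genes. Such matches describe letters of the genome, and HIF binding was not measured here.

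Library totals lay between 14519731 and 18177016 counts. Hif1an stood between 82.3 and 90.2 CPM (reads scaled to a common library total, with TMM factors) in the WT libraries and between 34.8 and 51.0 CPM in the FIH-KO libraries, which did not overlap. The summed level of 6 hypoxia-induced genes (Car9, Ndrg1, Slc2a1, Pdk1, Ankrd37 and Egln3) ran from 402 to 554 CPM in normoxia and from 2170 to 3740 CPM in hypoxia. All of them except Car9 stood higher in every hypoxia library than in any normoxia library. Car9 went from 0.129 and 0.118 CPM to 2.75 and 1.84 CPM in WT cells. In FIH-KO cells Car9 stayed low, at 0.298 and 0.224 CPM in normoxia and 0.312 and 0.130 CPM in hypoxia. Of the 5 epithelial markers, Krt8 and Krt18 were present while Epcam was at 0 in all libraries and Cdh1 did not pass 0.0683 CPM. The lung markers Nkx2-1 and Sftpc were at 0 in all libraries, whereas mesenchymal Vim was abundant. Among the immune markers Cd3e and Adgre1 were at 0 and Ptprc did not pass 0.205 CPM, but the summed level of 5 such genes was 0.321 to 0.533 CPM in WT and 1.94 to 5.99 CPM in FIH-KO libraries, where Lyz2 alone held 1.87 to 5.99 CPM. Summed mesenchymal markers stood at 4470 to 6060 CPM in WT and 8350 to 11100 CPM in FIH-KO libraries, mostly Vim and Fn1, while Cdh2 ranged only from 22.4 to 28.5 CPM over all libraries. The epithelial sum was also higher in FIH-KO libraries, at 436 and 538 against 326 and 352 CPM in normoxia and at 334 and 447 against 226 and 283 CPM in hypoxia. Krt8 ran from 104 to 151 CPM in WT and from 216 to 332 CPM in FIH-KO libraries. The part of these markers in the genotype results was not tested.

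The values that follow are given per library as CPM, first WT replicates 1 and 2 and then FIH-KO replicates 1 and 2, and fold changes of genotype are FIH-KO over WT. Bulk RNA gives the mean over all cells of a culture, so fewer cells expressing a gene and less RNA per cell cannot be told apart.

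**Figure D1:**
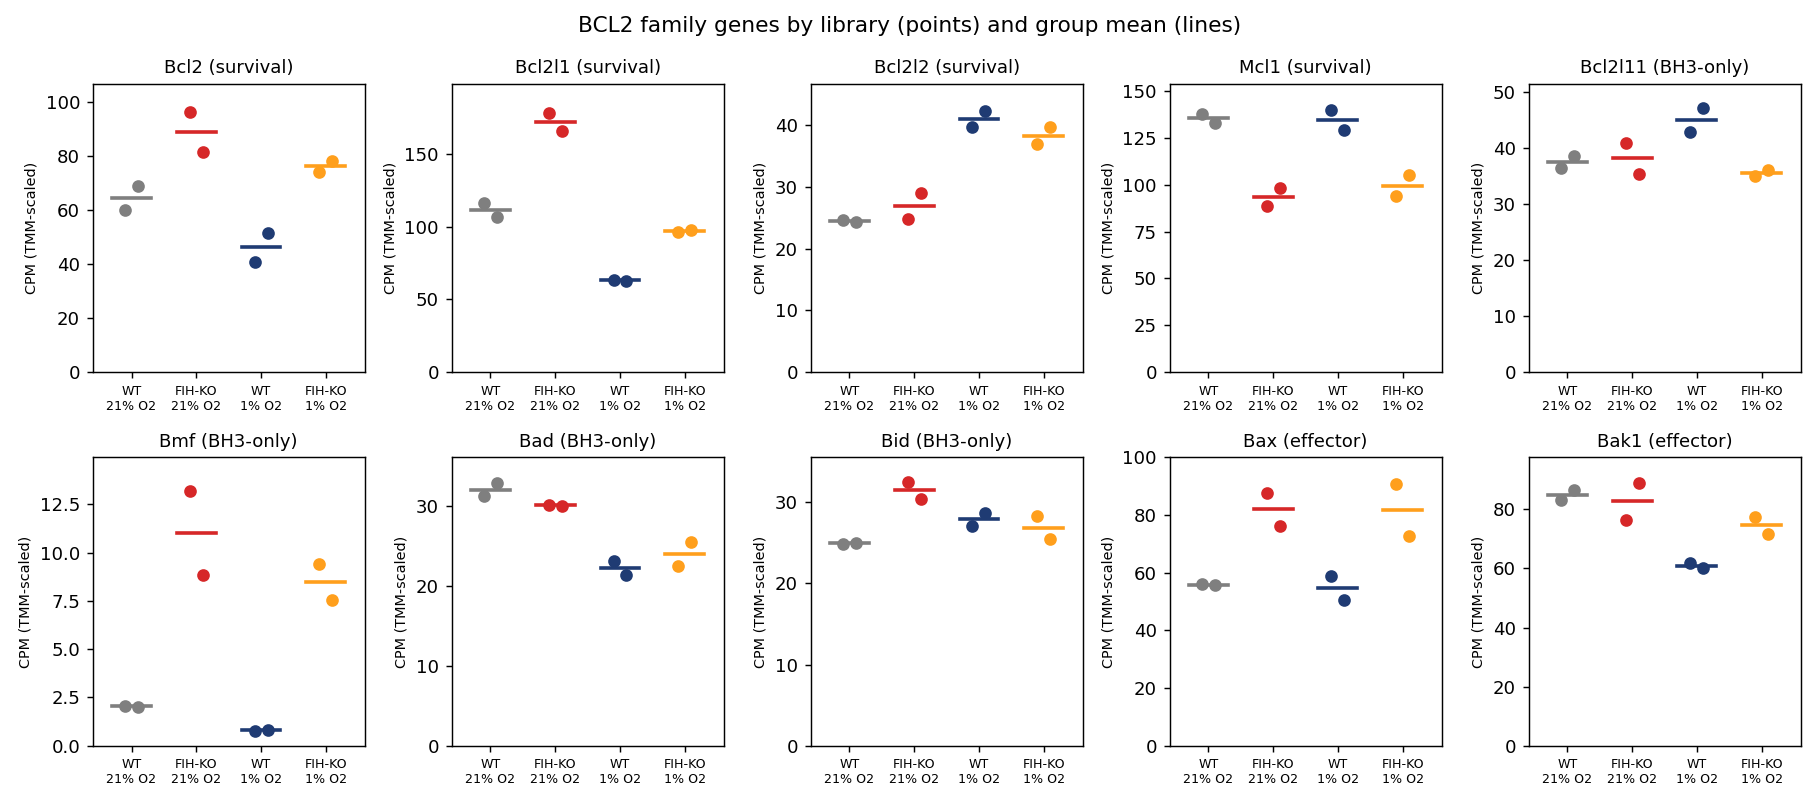
Level of each BCL2 family gene (CPM, TMM-scaled, vertical axis from 0) in WT and FIH-KO LLC cells at 21% and 1% O2. Points are the 2 libraries of a group and lines are their means; Bmf lies between 0.785 and 2.06 CPM in the WT libraries and between 7.55 and 13.2 CPM in the FIH-KO libraries.

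Upon FIH loss, 5 of the 10 genes passed the test in normoxia (adjusted p under 0.05, edgeR), against 28.2% of all tested genes. In that comparison Bcl2, Bcl2l1, Bmf and Bax rose, where 15.2% of all genes were called higher, and Mcl1 fell, where 13.0% were called lower. In hypoxia 5 genes passed as well, against 28.0% of all genes, and they were again Bcl2, Bcl2l1, Bmf and Bax upward and Mcl1 downward (14.1% and 13.9% of all genes). The members thus included survival genes in both directions, 1 BH3-only gene and 1 effector. The median log2 fold change over the 10 genes was 0.24 in normoxia and 0.20 in hypoxia, beside 0.00 and -0.03 over all tested genes. Libraries of WT and FIH-KO cells did not overlap for 8 of the 10 genes in each condition, against 69.4% of all genes in normoxia and 61.7% in hypoxia. Whether these shares differ was not tested.

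**Figure D2:**
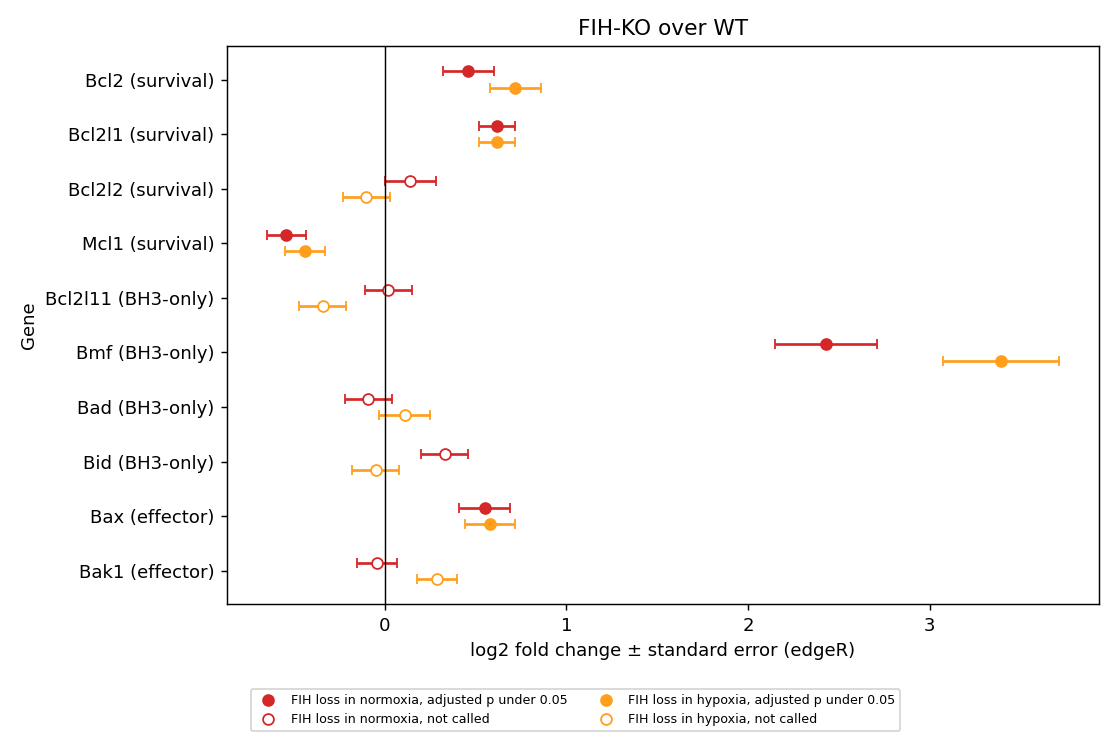
Log2 fold change of FIH-KO over WT for the 10 genes (horizontal axis), with the standard error as bars, at 21% O2 (red) and 1% O2 (orange). Filled points passed an adjusted p under 0.05 in edgeR: Bcl2, Bcl2l1, Bmf and Bax lie to the right of 0 and Mcl1 to the left in both conditions.

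Among the survival genes, Bcl2l1 encodes BCL-XL and lies on the minus strand of chromosome 2 (ENSMUSG00000007659.19, GRCm39 152622582 to 152673655). In normoxia its level was 116 and 107 CPM in WT cells, below the 178 and 166 CPM of FIH-KO cells. In hypoxia the levels were 63.3 and 62.9 CPM in WT and 96.4 and 97.6 CPM in FIH-KO cells. FIH-KO libraries were higher at either oxygen level, and the FIH-KO libraries in hypoxia were still below both WT libraries in normoxia. FIH loss raised Bcl2l1 1.54-fold in both conditions (log2 fold change 0.62, standard error 0.10, adjusted p = 0.00093 in normoxia and 0.0012 in hypoxia, edgeR). The difference between the conditions was 0.00, with a 95% interval from -0.32 to 0.31 on the log2 scale. The tested genes of chromosome 2 had a median of 0.23 in normoxia and 0.21 in hypoxia, and the 20 nearest tested genes had medians of 0.14 and 0.15. The counts are per gene, so the long and short splice forms of BCL-X, which act in opposite ways, were not told apart.

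Bcl2, the founding survival gene, lies on the minus strand of chromosome 1 (ENSMUSG00000057329.8, 106465908 to 106642060). Its level was 60.0 and 69.0 CPM in WT and 96.3 and 81.6 CPM in FIH-KO cells in normoxia. Hypoxia libraries stood at 41.0 and 51.6 CPM in WT and 74.1 and 78.4 CPM in FIH-KO cells. The genotypes did not overlap in either condition. FIH loss raised Bcl2 by 0.46 on the log2 scale at 21% O2 (standard error 0.14, edgeR adjusted p = 0.026) and by 0.72 at 1% O2 (standard error 0.14, edgeR adjusted p = 0.0028). The normoxia call was lost without FIH-KO normoxia replicate 1 (0.32, adjusted p = 0.23, edgeR), without WT normoxia replicate 1 (0.34, adjusted p = 0.27) or without WT normoxia replicate 2 (0.54, adjusted p = 0.072). The 20 nearest tested genes, spread over 19.3 megabases, had a median of -0.03 in normoxia (range -1.25 to 1.00) and -0.29 in hypoxia (range -1.90 to 0.64).

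Mcl1 encodes a short-lived survival protein and lies on the plus strand of chromosome 3 (ENSMUSG00000038612.17, 95566026 to 95570487). WT libraries held 138 and 133 CPM in normoxia and 140 and 129 CPM in hypoxia. FIH-KO libraries held 88.6 and 98.0 CPM in normoxia and 93.9 and 105 CPM in hypoxia. All FIH-KO libraries were thus below all WT libraries. Mcl1 fell by 0.54 on the log2 scale at 21% O2 (standard error 0.11, edgeR adjusted p = 0.0036) and by 0.44 at 1% O2 (standard error 0.11, edgeR adjusted p = 0.011). The hypoxia call was lost without FIH-KO hypoxia replicate 1 (-0.32, adjusted p = 0.083, edgeR) or without WT hypoxia replicate 1 (-0.35, adjusted p = 0.13). The surroundings of Mcl1 had medians in the same direction. The 20 nearest tested genes lay within 0.666 megabases. Their median was -0.50 in normoxia (range -1.57 to 1.00) and -0.39 in hypoxia (range -1.70 to 0.69). All other tested genes of chromosome 3 had medians of -0.36 and -0.40. The part of the surroundings in the Mcl1 value was not tested.

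Bcl2l2 encodes BCL-W, a survival protein, and lies on the plus strand of chromosome 14 (ENSMUSG00000089682.11, 55120778 to 55126551). In normoxia its libraries stood at 24.7 and 24.3 CPM in WT and at 24.8 and 29.1 CPM in FIH-KO cells. In hypoxia they stood at 39.8 and 42.4 CPM in WT and at 37.0 and 39.7 CPM in FIH-KO cells. FIH-KO libraries were above WT at 21% O2 and below it at 1% O2, each by less than could be called (0.14, adjusted p = 0.49, and -0.10, adjusted p = 0.62, edgeR). Its exons overlap those of a read-through gene (Gm20521) that is listed at 0 in every library, and how reads on shared exons were assigned is not given in the sources used here.

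The survival genes were also set side by side per length, in TPM (a share of transcripts scaled by gene length), using the summed length of each gene's annotated exons. In WT normoxia Mcl1 made up 53.7% to 54.1% of their summed TPM and Bcl2l1 29.4% to 30.8%. FIH-KO libraries in normoxia had the reverse order, with Bcl2l1 at 43.3% to 46.1% and Mcl1 at 33.8% to 37.6%. Mcl1 was again the larger share in hypoxia, at 59.0% to 62.5% in WT and 44.4% to 46.3% in FIH-KO cells. There Bcl2l1 held 19.2% to 19.5% in WT and 29.3% to 31.0% in FIH-KO cells. The length used moved these shares: with the canonical transcript, Bcl2l1 held 52.6% to 55.1% in FIH-KO normoxia and 37.5% to 39.4% in FIH-KO hypoxia, where Mcl1 held 35.9% to 37.7%. Bcl2 and Bcl2l2 each stayed under both of them in all libraries with either length.

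**Figure D3:**
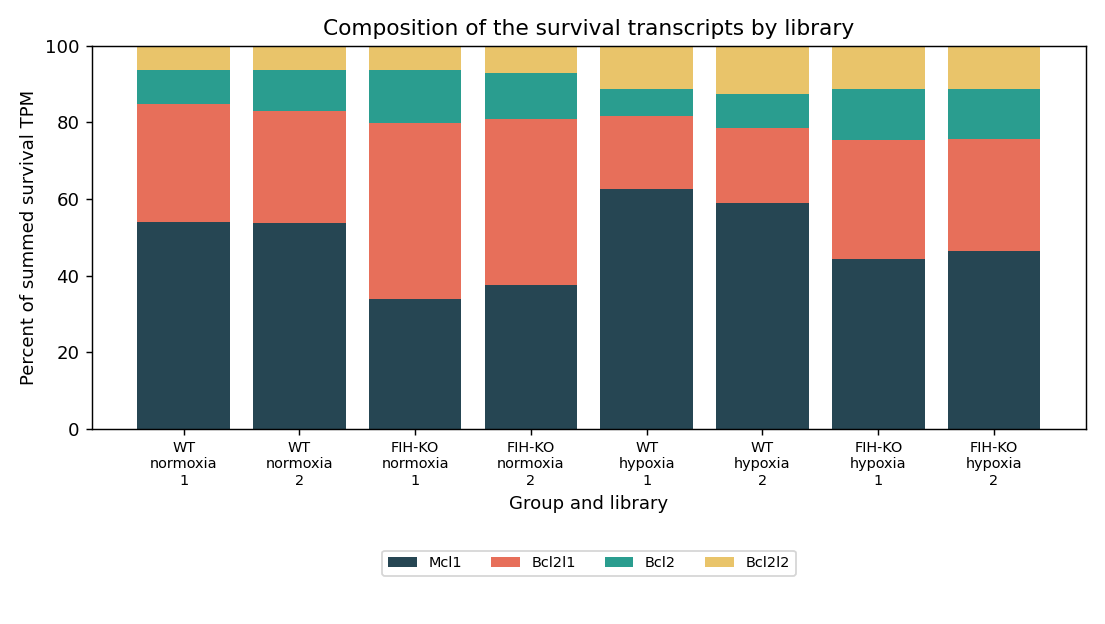
Share of each survival gene in the summed TPM of Bcl2, Bcl2l1, Bcl2l2 and Mcl1 (vertical axis, percent) in each of the 8 libraries, per summed exon length. Mcl1 is the largest share in the WT libraries, at 53.7% to 62.5%, and Bcl2l1 in the FIH-KO normoxia libraries, at 43.3% to 46.1%.

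Of the BH3-only genes, Bmf changed most. BMF is a BH3-only protein that can be held at the actin cytoskeleton. The gene lies on the minus strand of chromosome 2 (ENSMUSG00000040093.17, 118359238 to 118380177), and its WT libraries held 32 and 34 reads in normoxia and 14 and 12 in hypoxia. FIH-KO libraries held 221 and 158 reads in normoxia and 151 and 116 in hypoxia. On the CPM scale the WT and FIH-KO libraries held 2.06 and 2.01 against 13.2 and 8.84 at 21% O2, then 0.785 and 0.819 against 9.43 and 7.55 at 1% O2. Each FIH-KO library was above each WT library, whatever the oxygen level. Bmf rose 5.39-fold at 21% O2 (log2 fold change 2.43, standard error 0.28, edgeR adjusted p = 9.2e-05) and 10.5-fold at 1% O2 (3.39, standard error 0.32, edgeR adjusted p = 2.8e-05). Leaving out any 1 library gave log2 fold changes from 2.09 to 2.66 at 21% O2 and from 3.27 to 3.55 at 1% O2. The 20 nearest tested genes, which span 3.17 megabases, had medians of 0.71 and 0.52, above the medians of chromosome 2 (0.23 and 0.21). Their values ranged from -0.20 to 8.36 at 21% O2 and from 0.11 to 4.66 at 1% O2. The highest neighbor thus rose more than Bmf in both conditions. The part of the surroundings in the Bmf value was not tested.

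The other BH3-only genes did not pass the test upon FIH loss. Bcl2l11 encodes BIM, which binds all survival proteins, and lies on chromosome 2 (ENSMUSG00000027381.17, plus strand, 127967958 to 128004476). It stood at 36.5 and 38.6 CPM in WT and 40.9 and 35.4 CPM in FIH-KO cells in normoxia, where the genotypes overlapped, and at 42.9 and 47.1 against 35.1 and 36.1 CPM in hypoxia, where they did not. Its log2 fold change in hypoxia was -0.34 (standard error 0.13, adjusted p = 0.070, edgeR), while genes around it on chromosome 2 had a median of 0.22. Bid encodes the protein that caspase-8 cleaves to link death receptors to mitochondria (ENSMUSG00000004446.13, minus strand of chromosome 6, 120862525 to 120894171). Its normoxia libraries were at 24.9 and 25.0 CPM in WT and 32.5 and 30.4 CPM in FIH-KO cells, without overlap (0.33, standard error 0.13, adjusted p = 0.081, edgeR). At 1% O2 the Bid libraries overlapped, at 27.1 and 28.7 CPM in WT and 28.3 and 25.4 CPM in FIH-KO cells.

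BAD is the BH3-only protein whose binding to survival proteins is switched off by phosphorylation. Its gene lies on the plus strand of chromosome 19 (ENSMUSG00000024959.15, 6918902 to 6929280). The libraries held 31.2 and 32.8 CPM in WT and 30.1 and 30.0 CPM in FIH-KO cells in normoxia, then 23.1 and 21.4 against 22.5 and 25.5 CPM in hypoxia. Bad did not pass the test upon FIH loss (-0.09, adjusted p = 0.65, and 0.11, adjusted p = 0.59, edgeR). The other tested genes of chromosome 19 had medians of -0.38 and -0.45, and the 20 nearest to Bad -0.19 and -0.29. Exons of Bad and of Bid overlap exons of genes on the opposite strand (among them Gpr137 for Bad and Bcl2l13 for Bid). The same holds for Bak1 (Ggnbp1 and Gm50253) and Bcl2 (D630008O14Rik). The libraries were stranded, but the strand setting of the counting is not given in the sources used here.

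**Figure D4:**
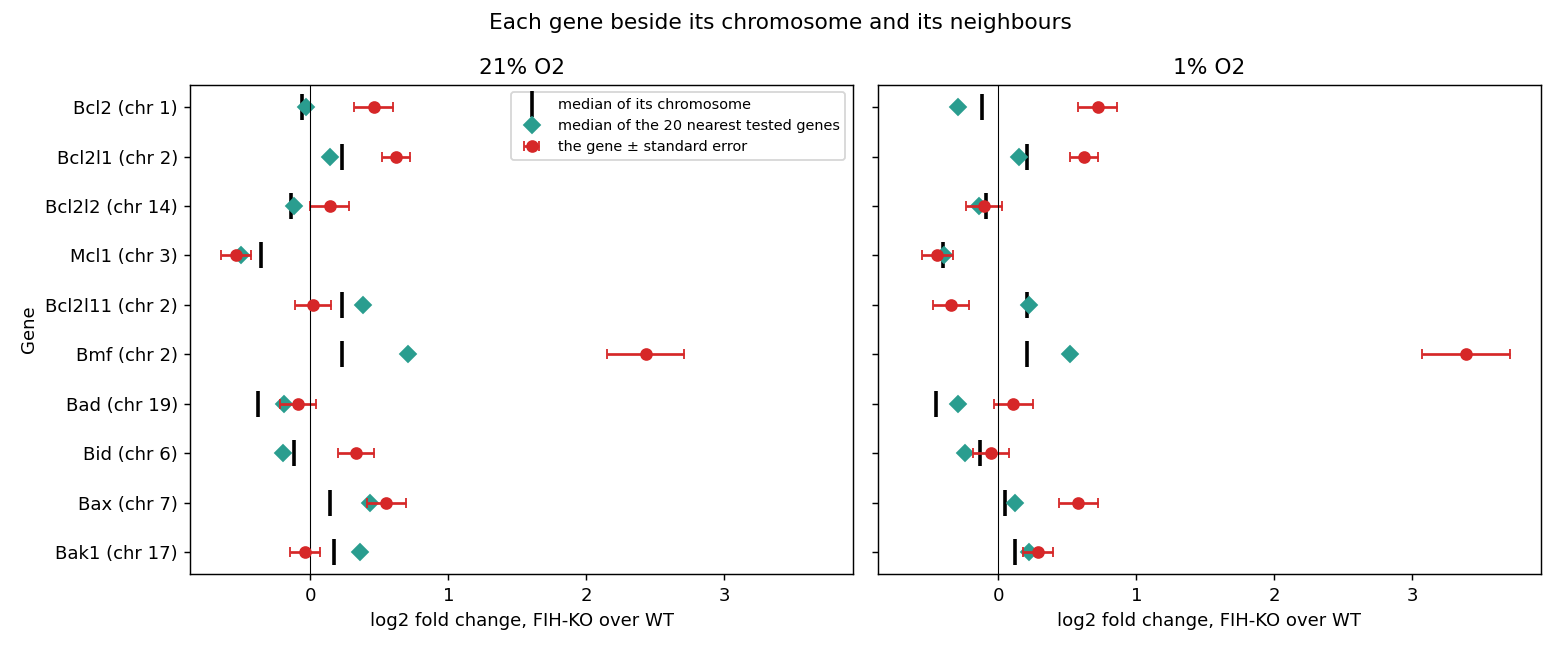
Log2 fold change of FIH-KO over WT for each gene (red, standard error as bars) beside the median of the other tested genes of its chromosome (black tick) and of its 20 nearest tested genes (green), at 21% O2 (left) and 1% O2 (right). Mcl1, at -0.54 and -0.44, lies beside the median of its neighbors at -0.50 and -0.39. Bmf, at 2.43 and 3.39, lies to the right of the median of its neighbors at 0.71 and 0.52. Single neighbors of Bmf, which are not drawn, reach up to 8.36 and 4.66.

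Both effectors were abundant. Bax lies on the minus strand of chromosome 7 (ENSMUSG00000003873.12, 45111015 to 45116325). Its WT libraries held 56.1 and 55.7 CPM in normoxia and 58.8 and 50.7 CPM in hypoxia, and the FIH-KO libraries 87.6 and 76.3 CPM and then 90.6 and 72.7 CPM. All FIH-KO libraries were above all WT libraries. Bax rose 1.47-fold at 21% O2 (log2 fold change 0.55, standard error 0.14, edgeR adjusted p = 0.010) and 1.49-fold at 1% O2 (0.58, standard error 0.14, edgeR adjusted p = 0.0083). In normoxia the call was lost without FIH-KO normoxia replicate 1 (0.43, adjusted p = 0.11, edgeR), WT normoxia replicate 1 (0.53, adjusted p = 0.091) or WT normoxia replicate 2 (0.52, adjusted p = 0.083), and in hypoxia without WT hypoxia replicate 2 (0.48, adjusted p = 0.079). The 20 genes nearest to Bax had medians of 0.43 in normoxia and 0.12 in hypoxia. Exons of Bax are shared with a read-through gene (Gm45808) listed at 0 in every library.

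Bak1, the other effector, lies on the minus strand of chromosome 17 (ENSMUSG00000057789.15, 27238784 to 27247983). In normoxia the genotypes overlapped, at 83.0 and 86.5 CPM in WT and 76.5 and 88.9 CPM in FIH-KO cells. In hypoxia the FIH-KO libraries, at 77.5 and 71.7 CPM, were above the WT libraries at 61.7 and 60.0 CPM. That difference of 0.29 (standard error 0.11, adjusted p = 0.075, edgeR) did not pass the threshold, and it did without FIH-KO normoxia replicate 1 or replicate 2 (0.33 each, adjusted p = 0.042 and 0.043), libraries that are in neither group of this comparison and bear on its estimate of the spread. Summed per exon length, Bax and Bak1 held 308 and 317 TPM in WT normoxia and 378 and 383 in FIH-KO normoxia. WT hypoxia held 275 and 264 TPM, FIH-KO hypoxia 379 and 336. With the canonical transcript, all FIH-KO effector sums (280 to 318 TPM) were above all WT sums (211 to 240 TPM). Survival genes summed, per exon length, to 349 and 341 TPM in WT normoxia, 359 and 367 in FIH-KO normoxia. Their hypoxia sums overlapped between genotypes (309 and 317 in WT, 283 and 316 in FIH-KO cells). BH3-only genes summed to 64.2 and 67.6 TPM in WT normoxia, 79.2 and 73.5 in FIH-KO normoxia, and overlapped in hypoxia. These sums were not tested.

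Hypoxia against normoxia was compared within each genotype, to show how the family responded to 1% O2. In WT cells 6 of the 10 genes passed (adjusted p under 0.05, edgeR), against 32.4% of all genes: Bcl2l2 rose (16.9% of all genes were called higher), and Bcl2, Bcl2l1, Bmf, Bad and Bak1 fell (15.5% were called lower). In FIH-KO cells 2 passed, against 16.8% of all genes, with Bcl2l2 rising (8.84% of all genes called higher) and Bcl2l1 falling (1114 of the 13933 genes called lower). The median over the 10 genes was -0.25 in WT and -0.19 in FIH-KO cells, beside 0.00 and -0.03 over all tested genes. The groups did not overlap for 8 of the 10 genes in WT cells, against 70.8% of all genes, and for 5 in FIH-KO cells, against 55.2%. The comparisons of genotype and of oxygen share libraries, so their values are not independent.

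**Figure D5:**
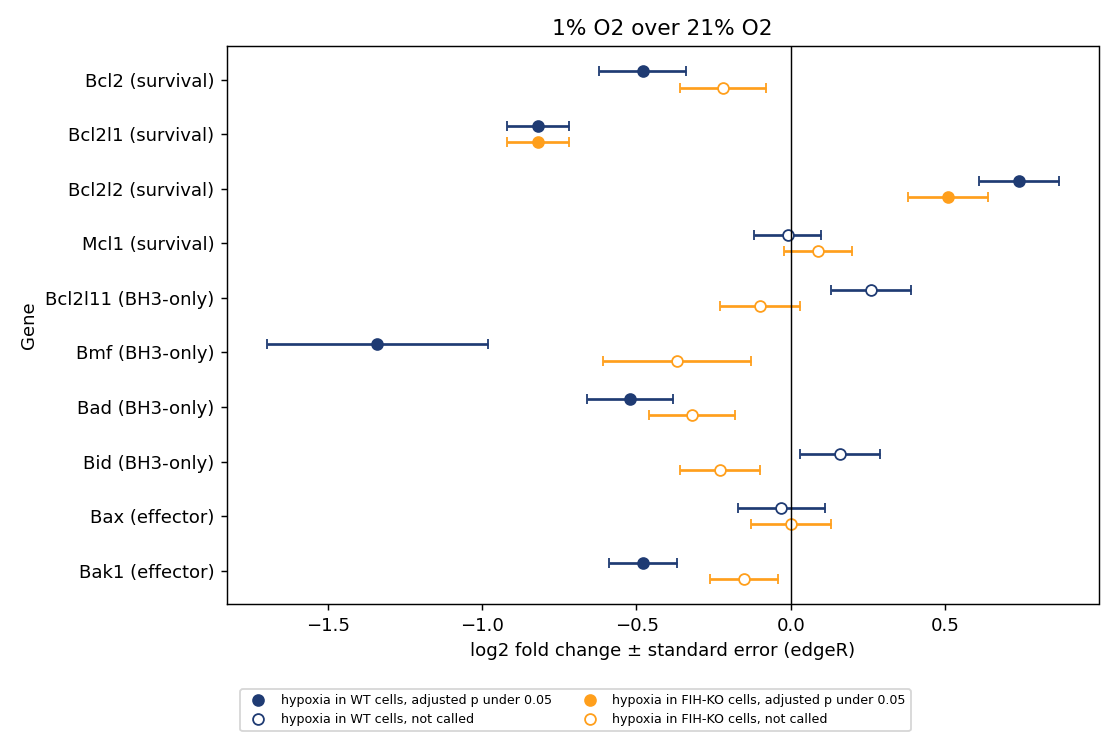
Log2 fold change of 1% over 21% O2 for the 10 genes (horizontal axis), with the standard error as bars, in WT (blue) and FIH-KO cells (orange). Filled points passed an adjusted p under 0.05 in edgeR: Bcl2l1 lies at -0.82 in both genotypes and Bcl2l2 at 0.74 in WT and 0.51 in FIH-KO cells.

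Among the survival genes, Bcl2l1 fell by 0.82 on the log2 scale in either genotype (standard error 0.10, adjusted p = 0.00016 and 0.00031, edgeR). Bcl2l2 moved the other way, 1.68-fold higher in WT cells (log2 fold change 0.74, standard error 0.13, adjusted p = 0.0015, edgeR) and 1.42-fold higher in FIH-KO cells (0.51, standard error 0.13, adjusted p = 0.022, edgeR). The Bcl2l2 call in FIH-KO cells was lost with only the 4 libraries compared in the fit (0.54, adjusted p = 0.064, edgeR), without FIH-KO hypoxia replicate 2 (0.45, adjusted p = 0.063) or without FIH-KO normoxia replicate 1 (0.42, adjusted p = 0.14). Neighbors of Bcl2l2 had medians of -0.12 and -0.07. Mcl1 libraries of both oxygen levels overlapped in each genotype (-0.01 in WT, adjusted p = 0.95, and 0.09 in FIH-KO cells, adjusted p = 0.63, edgeR). Bcl2 fell by 0.48 in WT cells (standard error 0.14, adjusted p = 0.022, edgeR), a call that was lost without WT hypoxia replicate 1 (-0.36, adjusted p = 0.15) or WT normoxia replicate 2 (-0.41, adjusted p = 0.15). In FIH-KO cells the Bcl2 value was -0.22 (adjusted p = 0.30, edgeR).

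Among the death genes, Bmf fell in WT cells to 0.396 of its normoxia level (log2 fold change -1.34, standard error 0.36, adjusted p = 0.015, edgeR), on the 12 to 34 reads per library given above. The size stayed between -1.39 and -1.34 with 1 library left out, but the adjusted p rose to between 0.054 and 0.073 without any 1 of the 4 WT libraries. FIH-KO libraries of both oxygen levels overlapped for Bmf (-0.37, standard error 0.24, adjusted p = 0.33, edgeR). Bad fell by 0.52 in WT cells (standard error 0.14, adjusted p = 0.012, edgeR), and had a value of -0.32 in FIH-KO cells (adjusted p = 0.13), without overlap in either. The 20 genes nearest to Bad had medians of -0.28 and -0.16. The Bad call was lost without WT hypoxia replicate 2 (-0.47, adjusted p = 0.076) or WT normoxia replicate 2 (-0.53, adjusted p = 0.078). Bak1 fell by 0.48 in WT cells (standard error 0.11, adjusted p = 0.0078, edgeR) and stood at -0.15 in FIH-KO cells (adjusted p = 0.42), where the libraries overlapped. Its WT call was lost without the same 2 libraries (-0.46, adjusted p = 0.054, and -0.49, adjusted p = 0.059). Bax did not follow Bak1, with -0.03 in WT and 0.00 in FIH-KO cells (adjusted p = 0.89 and 0.99, edgeR). Bcl2l11 and Bid did not pass in either genotype.

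Whether FIH loss acted unequally at the 2 oxygen levels, which is the same as asking whether hypoxia acted unequally in the 2 genotypes, was tested as an interaction. None of the 10 genes passed in edgeR or in DESeq2, and 1 of them, Bmf, had an unadjusted p under 0.05. Over all genes edgeR called 0 (0% of those tested), with 925 at an unadjusted p under 0.05, and DESeq2 called 37. The Bmf difference was 0.97 on the log2 scale (standard error 0.44, 95% interval 0.01 to 1.92, adjusted p = 0.75, edgeR), a larger rise upon FIH loss in hypoxia. Those of Bcl2l11 (-0.36, interval -0.76 to 0.04), Bid (-0.39, interval -0.80 to 0.02) and Bak1 (0.33, interval -0.02 to 0.68) had intervals that held 0. The calls of Bcl2, Bmf, Bad and Bak1 in WT but not in FIH-KO cells are therefore not shown to differ between genotypes.

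Set side by side per length, the members covered a wide range of levels. In WT normoxia the order by mean TPM was Mcl1 (186), Bak1 (168), Bax (144), Bcl2l1 (104), Bad (34.1), Bcl2 (33.5), Bcl2l2 (21.7), Bcl2l11 (17.8), Bid (12.2) and Bmf (1.85), and of these neighbors in the order Bad and Bcl2 overlapped between libraries. In FIH-KO normoxia Bax led (214 TPM), followed by Bak1 (167) and Bcl2l1 (162), which overlapped, and Bmf was again last at 10.1 TPM. WT hypoxia began with Mcl1 (190 TPM) and ended with Bmf (0.751 TPM), and FIH-KO hypoxia began with Bax (209 TPM) and ended with Bmf (7.68 TPM). With the canonical transcript as the length, Bax came first in WT normoxia too, at 147 TPM, before Mcl1 at 99.7 TPM, and Bad rose to 69.1 TPM. Bmf remained last in all groups with either length.

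Other genes of the pathway were counted from 3 lists. Over all tested genes, FIH loss raised 15.2% and lowered 13.0% in normoxia and raised 14.1% and lowered 13.9% in hypoxia, and hypoxia raised 16.9% and lowered 15.5% in WT cells and called 16.8% in either direction in FIH-KO cells. These shares are the background for the counts of each list. Of 15 further BCL2-related genes, 8 were tested: FIH loss raised 2 and lowered 2 in normoxia and lowered 2 in hypoxia, and hypoxia raised 3 and lowered 2 in WT cells and raised 2 in FIH-KO cells. The list's median was -0.17 and 0.04 upon FIH loss and 0.88 and 0.20 in hypoxia, in the same order of comparisons. The 3 Bcl2a1 genes and Bcl2l14 were at 0 in all libraries, Bcl2l10 and Bik did not pass 1 read and Hrk 7 reads in any library. Bcl2l13, a mitochondrial outer membrane protein of the family, fell upon FIH loss by 0.64 at 21% O2 (edgeR adjusted p = 0.00095) and by 0.42 at 1% O2 (adjusted p = 0.012), the latter lost with only the 4 libraries compared (-0.39, adjusted p = 0.057) and without FIH-KO hypoxia replicate 1 (-0.36, adjusted p = 0.056), WT hypoxia replicate 1 (-0.42, adjusted p = 0.060) or WT hypoxia replicate 2 (-0.38, adjusted p = 0.078). The mitophagy receptors Bnip3 and Bnip3l rose in hypoxia, Bnip3 by 3.04 in WT and 3.66 in FIH-KO cells (adjusted p = 9.5e-06 and 3.4e-06, edgeR) and Bnip3l by 1.79 in both (adjusted p = 1.4e-05 and 1.9e-05).

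All 24 regulators and partners of the family were tested. FIH loss raised 3 and lowered 3 in normoxia and lowered 2 in hypoxia, and hypoxia raised 4 and lowered 5 in WT cells and raised 3 and lowered 1 in FIH-KO cells, with list medians between -0.09 and -0.03. Ddit3, the stress factor CHOP, can activate Bcl2l11. FIH loss raised Ddit3 by 1.36 in normoxia (adjusted p = 0.011, edgeR), and its value in hypoxia was -0.40 (adjusted p = 0.28). The difference of -1.76 did not pass the interaction test (adjusted p = 0.35, edgeR). In hypoxia over normoxia Ddit3 rose by 4.34 in WT and 2.57 in FIH-KO cells (adjusted p = 7.0e-06 and 0.00017, edgeR). Trib3, a target of the same stress response, rose by 3.77 and 3.27 (adjusted p = 1.1e-05 and 3.9e-05). Casp8, the protease that cleaves BID, fell by 0.62 and 0.65 (adjusted p = 0.0079 and 0.012), and the calls were lost in WT cells without WT hypoxia replicate 1 or WT normoxia replicate 2 (-0.53 and -0.52) and in FIH-KO cells without FIH-KO hypoxia replicate 1 or FIH-KO normoxia replicate 1 (-0.53 and -0.49). Ywhag, a 14-3-3 protein of the kind that holds phosphorylated BAD, rose by 0.81 and 0.51 (adjusted p = 0.0014 and 0.030), the latter lost with only the 4 libraries compared (0.54) and without FIH-KO hypoxia replicate 1 (0.38) or FIH-KO normoxia replicate 1 (0.41). Marchf5, a ubiquitin ligase of the mitochondrial membrane on chromosome 19, fell upon FIH loss by 0.37 at 21% O2 (adjusted p = 0.025) and by 0.55 at 1% O2 (adjusted p = 0.0030), beside chromosome medians of -0.38 and -0.45. Its normoxia call was lost with no filter beyond 1 read (-0.35, adjusted p = 0.080) and without any 1 of the 4 libraries compared (-0.43 to -0.37).

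The 13 genes that act after the effectors were all tested. FIH loss lowered 5 and raised 0 in normoxia and lowered 4 and raised 1 in hypoxia, and hypoxia raised 0 in either genotype while lowering 4 in WT and 2 in FIH-KO cells. The list medians were -0.26 and -0.09 upon FIH loss and -0.22 and 0.05 in hypoxia. Cycs, which encodes cytochrome c, fell upon FIH loss by 0.79 at 21% O2 (edgeR adjusted p = 0.00047) and by 0.43 at 1% O2 (adjusted p = 0.015), the latter lost without FIH-KO hypoxia replicate 2, WT hypoxia replicate 1 or WT hypoxia replicate 2 (-0.41, -0.44 and -0.38). Htra2, a mitochondrial protease, fell in all comparisons: by 0.40 and 0.49 upon FIH loss (adjusted p = 0.017 and 0.0065) and by 0.60 and 0.69 in hypoxia (adjusted p = 0.0016 and 0.0015). The Htra2 call upon FIH loss was lost in normoxia without FIH-KO normoxia replicate 1, WT normoxia replicate 1 or WT normoxia replicate 2 (-0.43, -0.44 and -0.42) and in hypoxia without WT hypoxia replicate 2 (-0.40). Birc3, an inhibitor of apoptosis, fell by 1.16 and 1.15 (adjusted p = 0.036 and 0.024), but the normoxia call was lost in DESeq2 and without any 1 of the 4 libraries compared (-1.30 to -1.06). The Birc3 call in hypoxia was lost with only the 4 libraries compared (-1.12) and without FIH-KO hypoxia replicate 1 (-1.08), FIH-KO hypoxia replicate 2 (-1.17) or WT hypoxia replicate 1 (-0.57).

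Likeness of pattern over the 8 libraries was measured as the Pearson correlation of log2 CPM, with 0.5 CPM added before the logarithm. It was compared over the 10575 genes that averaged 50 or more counts. The genes most like Bmf were Pik3c3 (0.995), Psrc1 (0.992) and Jkamp (0.992). For Bcl2l1 they were 1810030O07Rik (0.995), Dlg5 (0.995) and Vwa8 (0.992). These correlations describe 4 groups of 2 libraries, with the group differences included.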

How the data were processed

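The 8 libraries came from WT and FIH-KO LLC cells kept at 21% or 1% O2, 2 for each of 4 groups. According to the labels and methods, the authors prepared TruSeq stranded mRNA libraries, used STAR to map reads to GRCm39, and obtained read counts for each gene by HTSeq. Raw, unnormalized counts were deposited. Versions, annotation release, strand setting and treatment of multimapping reads are not given in the sources used here. The submitters' processing notes also list GRCm38, mm10 and DESeq2. Groups were taken from sample titles.

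Counts were analyzed with edgeR 4.0.16 in R 4.3.3 (filterByExpr, TMM, one quasi-likelihood model of the 4 groups, Benjamini-Hochberg adjustment over 13933 genes, threshold 0.05), which was tested on simulated data. The biological coefficient of variation was 11.7%. CPM uses TMM-scaled totals, and TPM and positions use GENCODE M39 (97.97% of identifiers matched). Tables were handled with pandas 2.3.3 in Python 3.11.15, and plots were drawn with matplotlib 3.10.9. Every member was named in every comparison. A gene of the further lists was named where it passed both genotype or both oxygen comparisons, and 3 genes most like Bmf and like Bcl2l1 were named. Some genes that this rule named are not reported here. The members and lists were chosen with earlier results of these data known. Alternatives were DESeq2 1.42.0, RLE and upper-quartile normalization, 2 other filters, the 4 compared libraries alone, the replicate number as a block, and each library left out. The canonical transcript length was added after seeing the data. Totals of 14519731 to 18177016 counts set the precision, and a count of 0 allows up to 3 reads.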

Additional observations from a re-analysis of the deposited data

Results flagged for a closer look

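In a pair of genes the libraries moved in opposite directions between groups. For Bcl2l2, both FIH-KO libraries were above both WT libraries in normoxia and below both in hypoxia. The difference between the conditions was -0.24 on the log2 scale (95% interval -0.65 to 0.17, adjusted p = 0.84 in edgeR's interaction test). For Bid, both hypoxia libraries were above both normoxia libraries in WT cells and below both in FIH-KO cells, and the difference was -0.39 (95% interval -0.80 to 0.02, adjusted p = 0.76). Neither difference passed the test. Groups of 2 libraries allow no search for single outlying libraries.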

How the results depend on the processing

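Under the other normalizations, filters, DESeq2 and the fit with the replicate block, the counts of called genes stayed at 5, 5, 6, 2 and 0 for FIH loss in normoxia, FIH loss in hypoxia, hypoxia in WT, hypoxia in FIH-KO cells and their difference. With only the 4 libraries compared, the count in FIH-KO cells was 1. With 1 library left out, the counts ranged from 3 to 5, 4 to 6, 2 to 6, 1 to 2 and 0 to 0. The count for FIH loss in normoxia was 3 without FIH-KO normoxia replicate 1, WT normoxia replicate 1 or WT normoxia replicate 2. That for hypoxia in WT cells was 3 without WT hypoxia replicate 2 and 2 without WT normoxia replicate 2, and that in FIH-KO cells was 1 without FIH-KO hypoxia replicate 2 or FIH-KO normoxia replicate 1. Arms of 1 library were then assumed to vary like the other groups. Some values near 0 changed sign with 1 library left out. Upon FIH loss these were Bcl2l2 (-0.01 to 0.22), Bcl2l11 (-0.11 to 0.10) and Bak1 (-0.17 to 0.05) in normoxia and Bid (-0.09 to 0.03) in hypoxia. For hypoxia in WT cells they were Mcl1 (-0.11 to 0.04) and Bax (-0.18 to 0.07). For hypoxia in FIH-KO cells they were Bcl2l11 (-0.18 to 0.03) and Bax (-0.15 to 0.14). For the difference they were Bcl2l1 (-0.01 to 0.11) and Bax (-0.08 to 0.20). Bax in FIH-KO cells was 0.00 with upper-quartile normalization and 0.02 with at least 10 counts in every library or only the 4 libraries compared. The Bcl2l1 difference was 0.00 with RLE, 0.02 with upper-quartile normalization, 0.01 with no filter or DESeq2 and 0.03 with at least 10 counts. No label says whether same-numbered libraries were handled together. Deviations of same-numbered libraries correlated between -0.0104 and 0.193 over tested genes, and the block changed no count of called members. Over all genes, the calls for hypoxia in FIH-KO cells went from 2345 to 1289 with only the 4 libraries compared, and those for the difference from 0 to 143 with no filter beyond 1 read, 5 with the replicate block and 37 with DESeq2. With 1 library left out, the calls over all genes ran from 1735 to 4672 (3933 with all libraries), 2170 to 3887 (3896), 2124 to 5270 (4509), 1097 to 2604 (2345) and 0 to 39 (0), in the order of the comparisons above. Causes were not tested. TPM shares depend on the length used, and 12 to 34 reads per WT library limit Bmf.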
